A study of Rattus norvegicus with 8 samples.

Results

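Cells keep their lipids in balance with a set of genes that sense, make, import, modify and burn cholesterol and fatty acids. Here 47 such genes were followed in the rat hypothalamus, chosen by symbol among the protein-coding entries of the deposited table, and 39 of the 47 had at least 1 polyadenylation site. The other 8 (Idi1, Lss, Elovl2, Elovl6, Elovl7, Acsl5, Cpt2 and Fabp7) were not analysed here. The 39 genes carried 204 of the 73922 sites and are 39 of the 12255 genes tested. None of the 39 passed an adjusted p of 0.1 in either edgeR fit on all 8 libraries, with or without the library number as a block.

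The libraries came from WTTS-seq (whole transcriptome termini site sequencing), which counts the 3′ ends of polyadenylated RNA. Tissue was the hypothalamus of adult male rats of the Long-Evans strain. A diet-induced obesity group of 4 rats received a high fat diet and a control group of 4 received standard chow, for 36 days. Body weights were not analysed here, and nothing in the sources used here says what the library numbers 1 to 4, which both groups carry, have in common.

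In animal cells, the SREBP transcription factors sit in the endoplasmic reticulum bound to Scap, and the Insig proteins hold the complex there while sterol is plentiful. When sterol runs low the complex moves to the Golgi, SREBP is cut free and the genes of sterol and fatty acid synthesis are switched on, Insig1 itself among them. The brain makes nearly all of its own cholesterol, since plasma lipoproteins hardly cross the blood-brain barrier, and the hypothalamus is also a place where the supply of fatty acids and malonyl-CoA is known to act on feeding.

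Each library held 1417531 to 1957726 reads, and the 39 genes took 0.238% to 0.297% of the reads assigned to genes. Levels are given in CPM, counts scaled to a common library size with TMM factors, and values listed per library follow the order of the numbers 1 to 4. A transcript gives 1 read per captured end whatever its length, so CPM was not divided by length. Control library 1 and obesity library 1 stood apart in coverage, with 14788 and 10659 of the sites at 0 reads against 4062 to 6622 in the other 6. Of the 204 sites of these genes, 39 and 27 were at 0 in those libraries and 5 to 19 in the others. All 8 hypothalamic marker genes looked for were present. At an unadjusted p under 0.05, 2 of them were lower in obesity (Avp and Oxt) and 1 higher (Sim1), or 37.5% against 5.11% of all genes. With the library number as a block, 3 were lower and 1 higher, or 50% against 10.9% of all genes. Of the 8, 5 had log2 fold changes below 0 and 3 above. The summed level of the 8 was 1259.6 ± 190 CPM in control and 977.3 ± 105 CPM in obesity (SD, n = 4). It was lower in all 4 same-numbered pairs, and Avp alone gave 976.0 and 719.9 CPM of these means. Among oligodendrocyte markers, 11 of 12 had log2 fold changes (obesity against control) below 0, with a median of -0.20. The median was -0.16 over 10 markers of astrocytes, the cells that make much of the brain's sterol, and -0.22 over 10 neuron markers. Directions were mixed in these 2 lists, with 7 astrocyte markers below 0 and 3 above, and 6 neuron markers below 0 and 4 above. Over all genes, 49.9% were below 0. The summed level of the astrocyte markers was 3505.5 to 4717.6 CPM in control and 2579.0 to 4027.8 CPM in obesity. In a whole tissue, fewer cells of a type and less RNA per cell cannot be told apart, and the part of these shifts in the values of the 39 genes was not tested. Anterior pituitary and choroid plexus markers were low in most libraries, with the summed pituitary list at 126.7 CPM in 1 obesity library and the choroid plexus list at 121.2 CPM in another.

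The genes spanned a wide range of levels. Scd2, a stearoyl-CoA desaturase that puts the first double bond into saturated fatty acids, was the most abundant and gave 20.6% of the reads of all 39. The 5 most abundant genes, Scd2, Lrp1, Fads1, Acsl6 and Elovl1, gave 53.4%. At the other end, 5 genes were below 10 CPM in both groups. The median gene had 365 reads over the 8 libraries, and the median SE of a log2 fold change was 0.40.

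**Figure D1:**
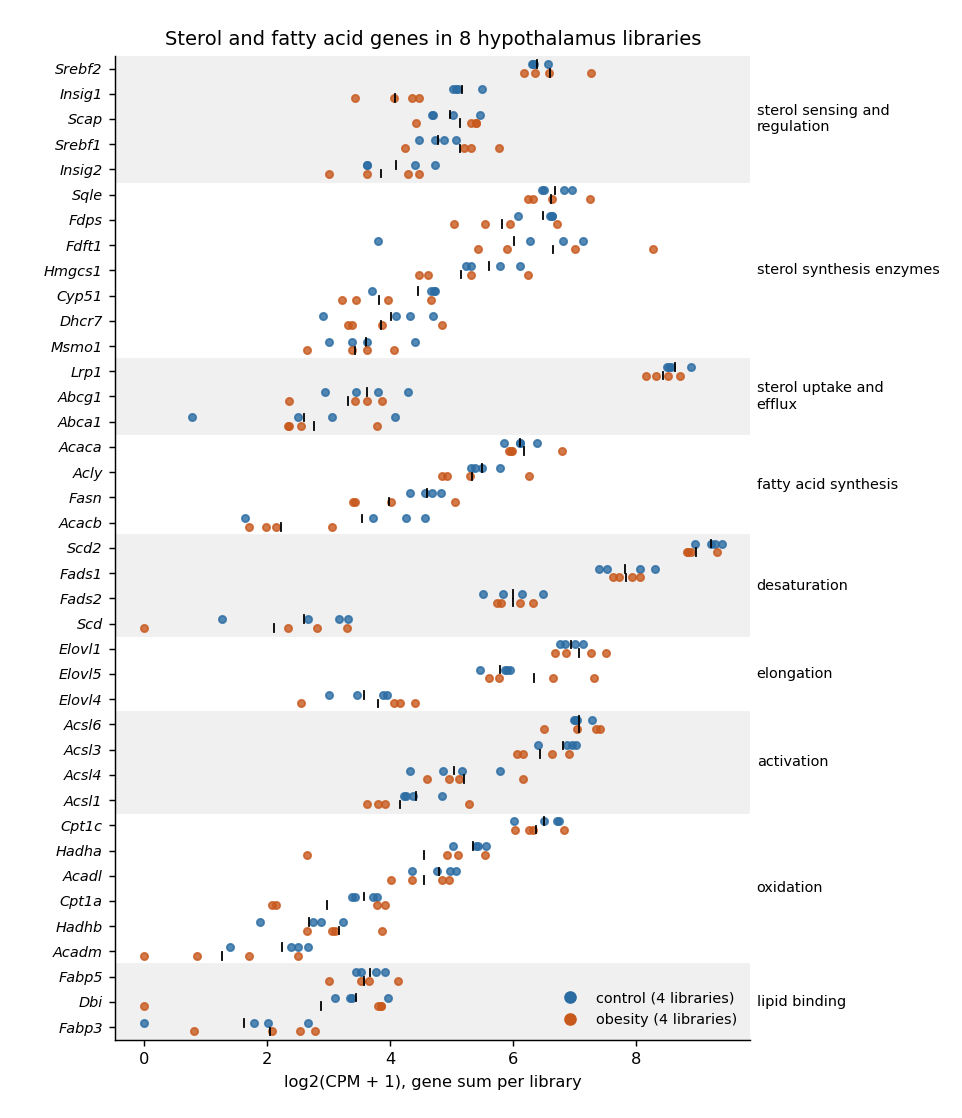
Level of each of the 39 genes in each library on a log2(CPM + 1) axis, grouped by role, with control libraries in blue, obesity libraries in orange and black ticks at the group means of the log2 values. The groups overlap for every gene but Insig1.

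The first comparison asked whether any of the genes differed in total read count between obesity and control. At the gene level 0 of 39 passed an adjusted p of 0.1 (edgeR), against 0 of 12255 genes (0%) tested. With the library number as a block the count was again 0 of 39, against 34 of all genes (0.277%), and by the DESeq2 Wald test 0 of 39 against 4 genes (0.0326%). At an unadjusted p under 0.05 stood 2 of 39 (5.13%), where 5.11% of all genes did so. Both were lower in obesity, and 2.57% of all genes were lower and 2.54% higher at that limit. With the block the count was 4 of 39 (10.3%), against a background of 10.9%. Of these, 3 were lower and 1 higher, against 6.15% and 4.77% of all genes. The shares were close to the background in both fits. The genes were Insig1 and Acacb in both fits, with Fdps and Elovl5 added by the block.

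The direction leaned to lower values. Of the 39 genes, 27 (69.2%) had a log2 fold change below 0, against 49.9% of all genes, and the median over the 39 was -0.13 against 0.00 over all genes. With the block the medians were -0.17 and -0.02. Leaving out 1 library at a time moved the median over the 39 genes between -0.17 and -0.05. Only Insig1 had no overlap between the groups, which was 1 of 39 lower and 0 higher, where 1.77% and 1.68% of all genes did so.

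**Figure D2:**
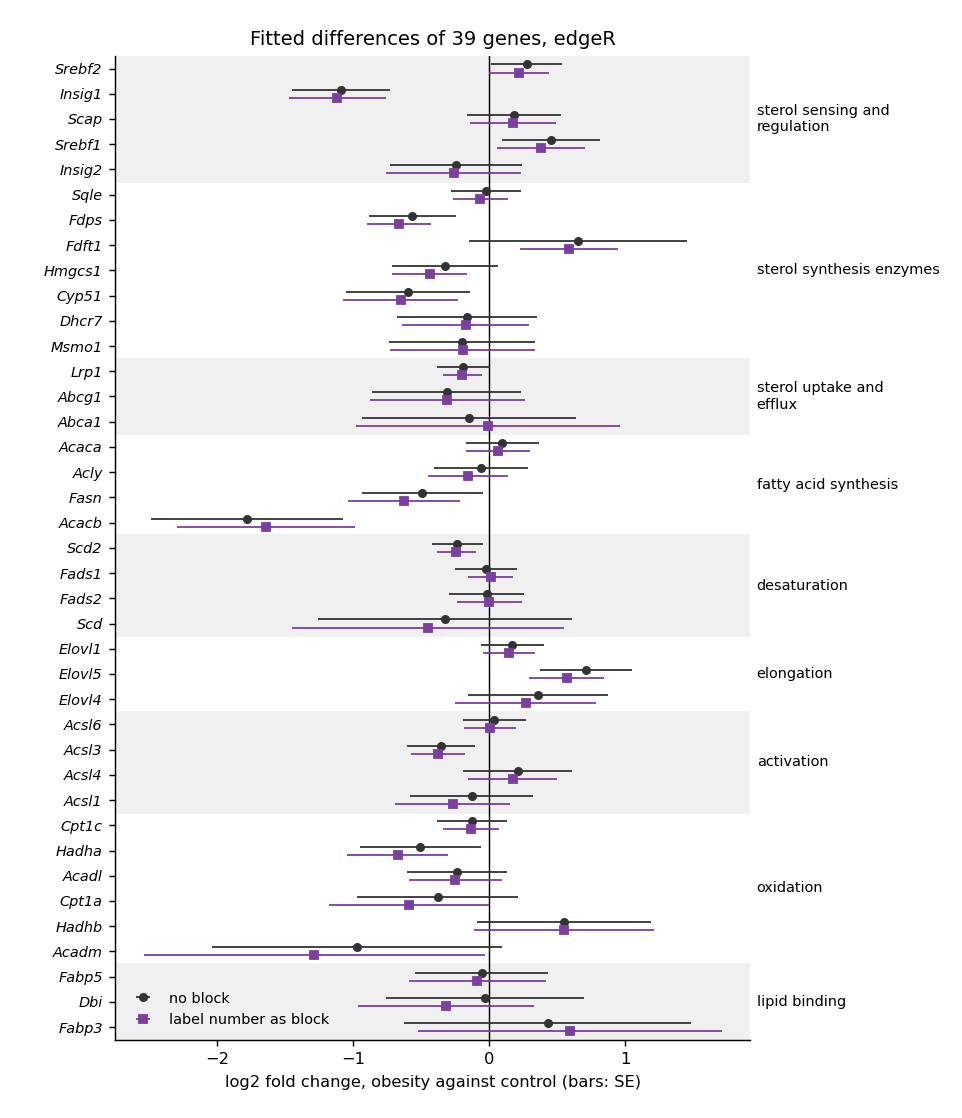
Fitted log2 fold change of each of the 39 genes, obesity against control, with bars of 1 SE, from the fit without a block (black circles) and with the library number as a block (purple squares). Without the block, Acacb and Insig1 lie farthest below 0 and Elovl5 and Fdft1 farthest above it.

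Sequence upstream of the genes was read from RefSeq promoter windows of build GRCr8, from 250 bases before to 50 after the start of each gene, which were found for 31 of the 39. In these windows the core of the sterol regulatory element, TCACNCCAC on either strand, occurred in 0 of 31 genes and in 1.25% of all 27457 genes with a window. The CCAAT box, which the factor NF-Y binds and which often accompanies that element in sterol genes, was present on either strand in 18 of 31 (58.1%) and in 39.6% of all. The 60 bases around the box nearest the start are shown for the 4 genes with an unadjusted p under 0.05 in either fit, 5′ to 3′ on the strand of the gene, with the box or its reverse complement in capitals.
Insig1 (chr4:8057930-8057989, minus strand): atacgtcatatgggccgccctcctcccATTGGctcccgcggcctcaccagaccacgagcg
Fdps (chr2:176804869-176804928, minus strand): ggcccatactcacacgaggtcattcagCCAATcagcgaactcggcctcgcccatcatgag
Acacb (chr12:48138254-48138313, minus strand): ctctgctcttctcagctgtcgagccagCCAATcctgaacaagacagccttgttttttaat
Elovl5 (chr8:87671069-87671128, plus strand): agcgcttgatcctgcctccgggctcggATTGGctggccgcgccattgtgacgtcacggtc

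The box ended 188 bases before the start in Insig1, 80 in Fdps, 67 in Acacb and 63 in Elovl5. A match of letters is a description of the window and not a measured binding site. The strand of the sites was that of the RefSeq gene in 30 of these 31 genes. Insig1 was the exception, on the plus strand of Rnor_6.0 and the minus strand of GRCr8, and its neighbours Htr5a, Lmbr1 and Nom1 were also on opposite strands in the 2 builds.

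Among the genes that sense sterol, the retention factor Insig1 was the one that stood apart. It was counted 47, 47, 40 and 58 times in control and 13, 24, 36 and 23 times in obesity. In normalized terms this was 33.3, 31.5, 32.5 and 44.1 CPM in control and 9.77, 19.5, 21.1 and 15.7 CPM in obesity. Every obesity library lay below every control library, and obesity library 1 was the lowest. The means were 35.3 ± 5.89 and 16.5 ± 5.03 CPM (SD, n = 4), for a fitted log2 fold change of -1.09 (SE 0.36, unadjusted p 0.0080, edgeR adjusted p 0.92). With the block it was -1.12, with an unadjusted p of 0.0041 and an edgeR adjusted p of 0.21. Insig1 was lower in all 4 same-numbered pairs, and without any 1 library its log2 fold change stayed between -1.23 and -0.91, at -1.12 without control library 1 and -0.91 without obesity library 1.

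The reads of Insig1 ended at 3 sites on chromosome 4 of Rnor_6.0, plus strand, the build of all site coordinates given here. The most 3′ one (chr4:350720-350733) held 56.2% of them, the most 5′ one (chr4:345848-345858) 33.0% and the middle one (chr4:349344-349370) 10.8%. All 3 had log2 fold changes below 0, at -0.85, -1.37 and -2.0 in that order. The lower total therefore did not come from a single site, and no site of Insig1 alone had an unadjusted p under 0.05 without the block. With the block, the most 5′ site had an unadjusted p of 0.037 (edgeR adjusted p 0.78).

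The other 4 sensing genes had smaller fitted differences. Insig2, the second retention factor, was at 17.1 ± 6.97 CPM in control and 14.5 ± 6.51 CPM in obesity (SD, n = 4), and the escort Scap at 31.2 ± 8.61 and 35.5 ± 10.1 CPM. Srebf2, which encodes the SREBP that acts mainly on sterol genes, was the most abundant of the 5. It had 79.3, 78.3, 94.3 and 80.6 CPM in control and 71.4, 94.99, 81.4 and 153.8 CPM in obesity. The obesity mean of Srebf2 rested on obesity library 4, and its log2 fold change was 0.27 (edgeR adjusted p 0.96, SE 0.26). These values left out 661 reads on its other strand, against 1028 kept. The site with most of them (chr7:123395551-123395554, minus strand) had a log2 fold change of 1.06 (SE 0.45). With both strands summed, Srebf2 came under the unadjusted p limit used for the genes, so its result depended on the strand. Srebf1, whose product acts more on fatty acid synthesis, had a log2 fold change of 0.45 (edgeR adjusted p 0.94, SE 0.36). The median over the 5 sensing genes was 0.18, with 3 above 0 and 2 below. It was 0.00 without obesity library 4, and with the block it was -0.02 without both libraries numbered 2, so its sign was not stable.

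Of the 7 sterol synthesis enzymes measured, 6 had values below 0 and the median was -0.20. Fdps, which makes farnesyl diphosphate, had 136, 147, 121 and 88 reads in control and 61, 129, 104 and 47 reads in obesity, or 96.3, 98.4, 98.3 and 66.9 CPM against 45.8, 104.7, 60.9 and 32.0 CPM. The groups overlapped through obesity library 2, and Fdps was lower in the other 3 pairs. Its log2 fold change was -0.57 (SE 0.32, unadjusted p 0.093, edgeR adjusted p 0.92) without the block and -0.66 (unadjusted p 0.0093, edgeR adjusted p 0.28) with it. Without both libraries numbered 2, the blocked fit gave -0.93 at an edgeR adjusted p of 0.043, in a fit that called 562 of all genes (4.59%). The other 3 blocked fits of this kind gave -0.65 to -0.53 at edgeR adjusted p-values of 0.61 to 0.78. Without the block, Fdps was at -0.34 without obesity library 4 and at -0.96 without obesity library 2.

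Sqle, the squalene epoxidase that catalyses a slow step of the pathway, was nearly level between groups. It had 89.9, 87.7, 123.5 and 112.5 CPM in control and 75.1, 98.2, 152.3 and 79.6 CPM in obesity. The spread within obesity covered that of the controls, and the log2 fold change was -0.03 (SE 0.26). Hmgcs1, which feeds the first steps, was at 49.6 ± 14.96 and 39.7 ± 24.9 CPM (SD, n = 4), and the demethylase Cyp51 at 21.7 ± 6.49 and 14.3 ± 7.29 CPM. Their log2 fold changes were -0.33 and -0.60, at edgeR adjusted p-values of 0.98 and 0.94 without the block and 0.61 and 0.62 with it.

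Fdft1, squalene synthase, had the most reads of these enzymes but cannot be read with confidence. The strand with most of its reads carried 1 site (chr15:46363194-46363197, plus strand) with 197, 115, 16 and 147 reads in control and 412, 52, 100 and 188 reads in obesity. On the minus strand lay 3 further sites assigned to Fdft1, with 205 reads in all. Reads on a second strand were not limited to Fdft1, and among these enzymes Msmo1 had 89 there against 124 kept. The plus-strand site varied widely among the libraries of each group, its log2 fold change was 0.65 (SE 0.80), and which strand holds the Fdft1 transcript was not settled here. With the minus-strand sites used in its place, a choice made after the data were seen, the median over the sterol enzymes was -0.21. Without both libraries numbered 2, Fdft1 on its plus strand passed in the blocked fit at a log2 fold change of 1.02 (edgeR adjusted p 0.026), and it passed in no other setting tried.

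**Figure D3:**
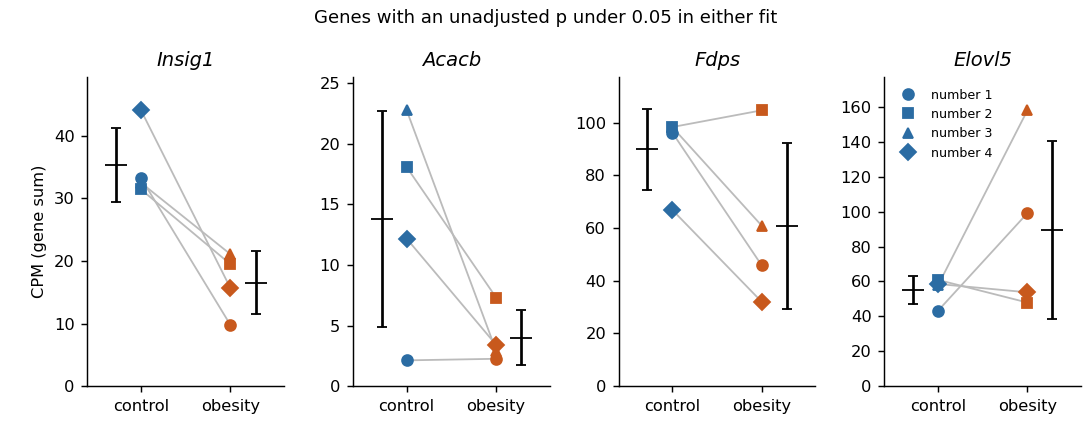
CPM per library of the 4 genes with an unadjusted p under 0.05 in either fit, with grey lines joining libraries of the same number and black bars giving mean and SD. Insig1 is lower in obesity in 4 of 4 pairs, Fdps in 3 of 4, and for Elovl5 obesity libraries 1 and 3 lie above all controls.

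Sterol uptake and efflux were represented by 3 genes, all with values below 0 and none past an unadjusted p of 0.05 in either fit. Lrp1, a large receptor that takes up apolipoprotein E particles, dominated this group with 371.6, 380.8, 478.7 and 365.0 CPM in control and 286.2, 420.6, 367.8 and 322.0 CPM in obesity. Its groups overlapped, and the log2 fold change was -0.19 (SE 0.19). The efflux transporters Abca1 and Abcg1 were near 10 CPM or lower in each group, and their log2 fold changes of -0.15 and -0.31 had SEs of 0.79 and 0.55.

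In fatty acid synthesis, Acacb had the lowest fitted value of the 39 genes and Acaca was level. Acaca encodes the acetyl-CoA carboxylase that supplies malonyl-CoA for synthesis, and Acacb the form at the mitochondrion whose malonyl-CoA restrains fatty acid import. Acacb rested on 1 site (chr12:48127150-48127173, minus strand) with few reads, 3, 27, 28 and 16 in control and 3, 9, 5 and 5 in obesity. Control library 1 was as low as the obesity libraries, and the other 3 controls were above all of them. The means were 13.8 ± 8.90 and 3.97 ± 2.27 CPM (SD, n = 4), for a fitted log2 fold change of -1.78 (SE 0.71, unadjusted p 0.022, edgeR adjusted p 0.92). With the block it was -1.64 (unadjusted p 0.019, edgeR adjusted p 0.34). Left out in turn without the block, control library 2 or 3 took the unadjusted p of Acacb to 0.063 or 0.10. Control library 3 alone held the highest value, and without it the log2 fold change was -1.43.

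Acaca had 67.9, 83.0, 56.9 and 68.4 CPM in control and 62.4, 61.7, 60.3 and 111.0 CPM in obesity. Obesity library 4 was high and the other 3 lay within the range of the controls, and the log2 fold change was 0.10 (SE 0.27). Acly, which makes cytosolic acetyl-CoA, and Fasn, the fatty acid synthase, had log2 fold changes of -0.06 and -0.50. Fasn was at 23.5 ± 3.48 CPM in control and 16.7 ± 10.8 CPM in obesity (SD, n = 4), and obesity library 2 was above all 4 controls. Without that library, the median over the 4 synthesis genes went from -0.28 to -0.75.

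Desaturation was the most abundant group, at 902.4 ± 139 CPM summed in control and 806.4 ± 95.6 CPM in obesity (SD, n = 4). Scd2 had 672.4, 596.9, 621.7 and 500.3 CPM in control and 456.8, 640.6, 473.8 and 460.1 CPM in obesity. Obesity libraries 1, 3 and 4 were below all controls, obesity library 2 was above 3 of them, and the log2 fold change was -0.24 (SE 0.19). Scd, its close relative that is the main form in liver, was below 10 CPM in every library. Fads1 and Fads2, which build polyunsaturated fatty acids, differed by -0.02 and -0.02 on the log2 scale, with SEs of 0.23 and 0.28.

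The 3 elongases measured all had values above 0, with a median log2 fold change of 0.36. That median was 0.19 without control library 1 and 0.64 without obesity library 2. Elovl1, which extends saturated chains, was the most abundant at 108.3, 139.9, 113.8 and 128.5 CPM in control and 114.9, 102.3, 152.8 and 181.1 CPM in obesity. Obesity libraries 3 and 4 lay above all controls and obesity library 2 below them, at a log2 fold change of 0.17 (SE 0.23). Elovl5, which extends polyunsaturated chains, had 43.2, 60.9, 57.7 and 58.5 CPM in control and 99.2, 47.9, 158.1 and 53.8 CPM in obesity. Obesity libraries 1 and 3 were high and the other 2 were within the control range. The log2 fold change of Elovl5 was 0.71 (SE 0.34, unadjusted p 0.052, edgeR adjusted p 0.92) without the block and 0.57 (unadjusted p 0.048, edgeR adjusted p 0.45) with it. Its largest site (chr8:85286826-85286838, plus strand, 74.6% of its reads) had 53, 55, 43 and 51 reads in control and 113, 48, 217 and 47 reads in obesity. Without both libraries numbered 2, the blocked fit gave Elovl5 a log2 fold change of 0.87 (edgeR adjusted p 0.084), and without both numbered 3 it gave 0.25 (edgeR adjusted p 0.95). Without the block, the value for Elovl5 fell to 0.29 when obesity library 3 was left out.

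The acyl-CoA synthetases that activate fatty acids had log2 fold changes from -0.36 for Acsl3 to 0.21 for Acsl4. Acsl6, the most abundant of them, had 128.1, 154.6, 126.0 and 131.5 CPM in control and 90.1, 131.5, 162.2 and 169.5 CPM in obesity. Obesity libraries lay on both sides of the controls, and its log2 fold change was 0.04 (SE 0.23). Summed on the strand with most of its reads, Acsl3 was lower in all 4 same-numbered pairs. It was at 113.6 ± 20.3 CPM in control and 88.8 ± 25.0 CPM in obesity (SD, n = 4), with an edgeR adjusted p of 0.94 without the block and 0.51 with it. A site on its other strand (chr9:84583486-84583492, minus strand) had 48, 80, 60 and 43 reads in control and 53, 45, 229 and 81 in obesity. That site had a log2 fold change of 0.62 (SE 0.46), opposite in sign, and the pairs were not compared with it included.

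In the group listed under oxidation, 5 of 6 genes had values below 0 and the median was -0.31. Cpt1c, the brain member of the carnitine palmitoyltransferase 1 family, was the most abundant with 106.9, 89.7, 104.8 and 63.9 CPM in control and 113.4, 79.6, 76.1 and 64.7 CPM in obesity. Its groups overlapped, with a log2 fold change of -0.13 (SE 0.26). Hadha, the large subunit of the trifunctional protein, was at 40.3 ± 6.19 CPM in control and 28.3 ± 16.9 CPM in obesity (SD, n = 4), and obesity library 1 had 5.26 CPM of it. Hadhb, the partner subunit, had a value of 0.55 (SE 0.64), opposite in sign to Hadha.

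Summed over its 6 genes, oxidation gave 197.5, 181.4, 173.1 and 166.5 CPM in control and 158.5, 166.4, 147.0 and 142.9 CPM in obesity. All obesity sums were below all control sums, the nearest by less than 0.1 CPM. Cpt1c alone gave 91.3 of the mean control sum of 179.6 CPM and 83.4 of the mean obesity sum of 153.7 CPM. No member of the group had an unadjusted p under 0.05 in either fit.

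The lipid-binding genes were sparse. Fabp5, the most abundant of the 3 measured, had 14.2, 12.7, 10.6 and 9.88 CPM in control and 16.5, 10.6, 7.03 and 11.6 CPM in obesity. Its log2 fold change was -0.06 (SE 0.49). Dbi, the acyl-CoA binding protein, had 0 reads in obesity library 4 and 16 to 23 in the other obesity libraries.

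**Figure D4:**
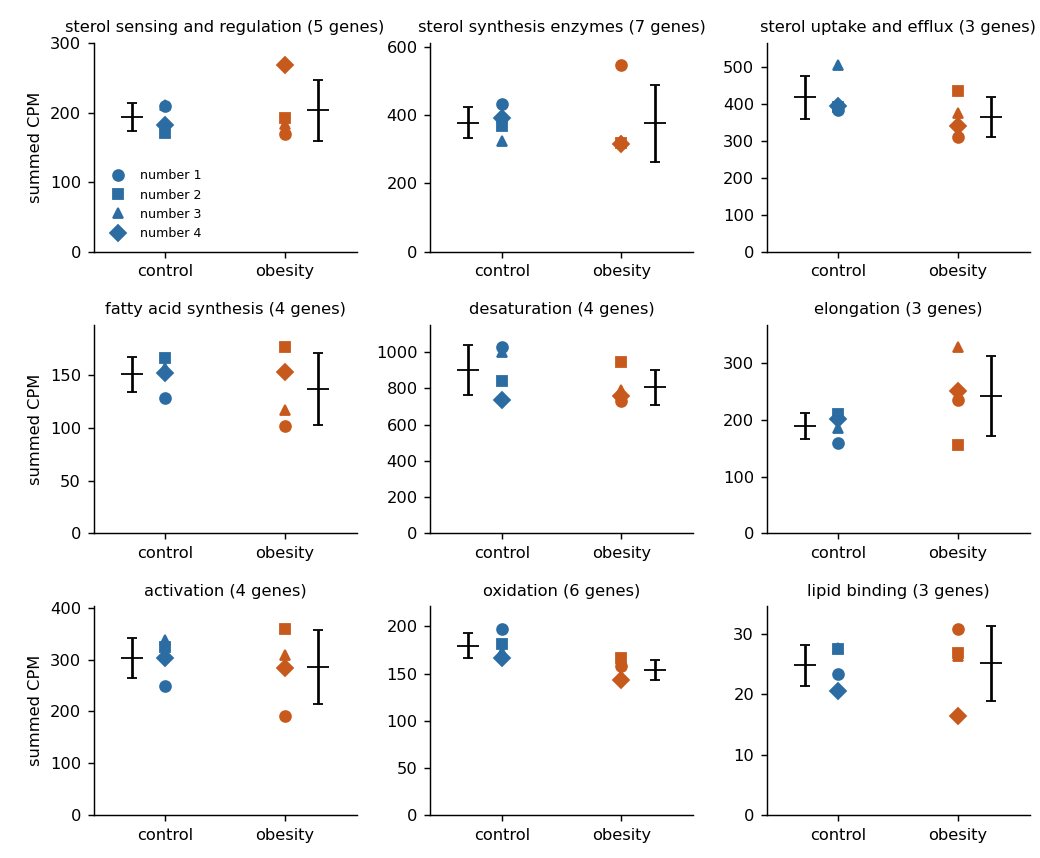
Summed CPM of the genes of each role in each library, with markers for the library number and black bars giving mean and SD. The sums overlap between control (blue) and obesity (orange) in 8 of the 9 groups, and in oxidation the highest obesity sum lies just under the lowest control sum.

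Genes of the same pathways that were not among the 47 were looked at in the same way. Of 28 further sterol genes, 21 were measured, with a median log2 fold change of -0.04 and 0 past an adjusted p of 0.1 (edgeR, with or without the block). Of these, 1 (4.76%) was lower and 0 higher at an unadjusted p under 0.05, against 2.57% of all genes lower and 2.54% higher. With the block 2 (9.52%) were lower and 0 higher, against 6.15% and 4.77%. Sc5d, a late enzyme of cholesterol synthesis, had 175.5, 162.6, 192.6 and 163.5 CPM in control and 130.7, 147.8, 90.8 and 96.7 CPM in obesity, with no overlap. Its log2 fold change was -0.58 (SE 0.22, unadjusted p 0.018 without and 0.0031 with the block, edgeR adjusted p 0.92 and 0.19).

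Of 40 further fatty acid genes, 32 were measured, with a median of 0.08 and 0 past an adjusted p of 0.1 in either edgeR fit. Of these, 2 were higher and 2 lower (12.5% in all) at an unadjusted p under 0.05, against 5.11% of all genes. With the block 3 were higher and 5 lower (25%), against 10.9%. Acot7, a neuronal acyl-CoA thioesterase, had 14.9, 17.4, 18.7 and 11.4 CPM in control and 34.6, 32.5, 46.3 and 27.2 CPM in obesity. Every obesity library of Acot7 was above every control, at 15.6 ± 3.21 CPM against 35.1 ± 8.04 CPM (SD, n = 4), for a fitted log2 fold change of 1.17 (edgeR adjusted p 0.92, blocked 0.18, SE 0.36). Tecr, the last enzyme of the elongation cycle, was at 881.4 ± 229 CPM in control and 645.5 ± 107 CPM in obesity (SD, n = 4), with overlap, and had a log2 fold change of -0.45 (edgeR adjusted p 0.92, blocked 0.23).

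The second comparison asked whether single polyadenylation sites of the genes differed. Of the 204 sites, 0 passed an adjusted p of 0.1 (edgeR), with or without the block, against 1 of 73922 sites (0.00135%) without and 4 (0.00541%) with it. At an unadjusted p under 0.05 stood 13 sites (6.37%), against 3.14% of all sites. Of these, 8 were higher and 5 lower, where 1.72% and 1.41% of all sites were. With the block the count was 24 (11.8%), against 6.09%, with 12 in each direction against 2.79% higher and 3.31% lower. These sites come from few genes and share their libraries, so they are not independent of each other. Leaving out low-count sites (filterByExpr) took the 13 to 5. The share of all kept sites at that limit was not computed, so the 5 have no background to be read against.

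At an unadjusted p under 0.01 stood 1 of the 204 sites without the block, where 0.502% of all sites did so, and 3 with it, against 1.64%. These 3 sites all belonged to Scd2, which had 28 sites over 14.5 kb of chromosome 1 (plus strand). A site near its 5′ end (chr1:264060317-264060395) had 9, 5, 8 and 13 reads in control and 31, 50, 26 and 38 reads in obesity. Every obesity library was above every control library at this site, with a log2 fold change of 1.94 (SE 0.52, unadjusted p 0.0021, edgeR adjusted p 1.00, blocked 0.30). A site farther downstream (chr1:264069666-264069736) had 303, 165, 82 and 83 reads in control and 78, 110, 60 and 37 reads in obesity, a log2 fold change of -1.15 (edgeR adjusted p 1.00, blocked 0.26, SE 0.47). Without both libraries numbered 2 the blocked fit gave this site a log2 fold change of -1.45 (edgeR adjusted p 0.020), and without both numbered 1 it gave -0.89 (edgeR adjusted p 0.87). Control library 1 held the most reads of this site, and without that library and without the block the value was -0.69 (unadjusted p 0.16).

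The third named site (chr1:264069459-264069540) followed the library number. It had 57, 239, 35 and 148 reads in control and 29, 129, 23 and 95 reads in obesity. Numbers 2 and 4 were high in both groups, and within each number the obesity library was the lower. Its log2 fold change was -0.78 (SE 0.65, unadjusted p 0.25) without the block and -0.88 (unadjusted p 0.0037, edgeR adjusted p 0.48) with it. Leaving out 1 library moved the value without the block between -1.43 and -0.28.

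The third comparison asked whether reads were shared out differently among the sites of a gene. Of the 34 genes with 2 or more sites, 0 had an unadjusted Simes p under 0.05 (edgeR diffSpliceDGE), against 1.36% of the genes tested, and Scd2 had the lowest at 0.080. With the block Scd2 alone was under 0.05, at an unadjusted p of 0.0042 and an edgeR adjusted p of 1, against a background of 2.8%. At the most 3′ site of a gene, the share of reads was lower in obesity for 25 of 34 genes and higher for 9 (26.5%), where it was higher for 38.4% of all genes. The median difference was -4.24 percentage points, and over all genes it was -1.57. With 1 library left out the median over the 34 genes ran from -6.70 without obesity library 2 to -2.36 without control library 3. None of the 34 genes had groups that did not overlap in this share, where 2.55% of all genes did so with lower values and 0.5% with higher.

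Scd2 had a larger share of its reads at minor sites in obesity, a measure chosen after the values were seen. Its 4 larger sites all had log2 fold changes below 0 (-1.24 to -0.40), and of its 24 minor sites, each under 5% of the gene's reads, 18 were above 0 and 6 below. The minor sites together held 156, 146, 172 and 154 reads in control and 284, 256, 312 and 272 reads in obesity. As a share of all Scd2 reads this was 16.4%, 16.4%, 22.5% and 23.4% in control and 46.7%, 32.4%, 38.6% and 40.2% in obesity. The lowest obesity library exceeded the highest control by more than the SD of either group, and the means were 19.7% ± 3.8 and 39.5% ± 5.86 (SD, n = 4). In CPM the minor sites went from 116.2 ± 17.6 to 197.3 ± 15.6 while the larger sites went from 481.6 ± 74.1 to 310.5 ± 83.8 (mean ± SD, n = 4).

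Lrp1 had a like pattern among its 19 sites over 80.4 kb of chromosome 7. Its 16 minor sites held 16.4%, 15.5%, 16.6% and 18.1% of its reads in control and 29.9%, 22.2%, 28.5% and 37.0% in obesity, again without overlap. The means were 16.7% ± 1.10 and 29.4% ± 6.07 (SD, n = 4). This measure was chosen after the values were seen, so no test is given.

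Of the 10 genes with minor sites, 2 had groups that did not overlap with higher values in obesity, where 2.19% of all 2464 genes with such sites and reads in every library did so, and 5 of the 10 had a lower mean share in obesity. Among 1816 genes with minor sites and at least 1000 reads, 0 had a larger difference than the 19.8 percentage points of Scd2 and 19 had a larger one than the 12.8 of Lrp1, while the median was 0.46 and the lowest -19.5, so that a difference of nearly the same size occurred in the other direction. Over all genes with minor sites, the share of reads at them was 25.4% to 27.7% in control libraries and 27.6% to 30.3% in obesity libraries, so it too was higher in obesity, by far less, with the ranges just overlapping. The part of that shift in the Scd2 and Lrp1 values was not tested.

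**Figure D5:**
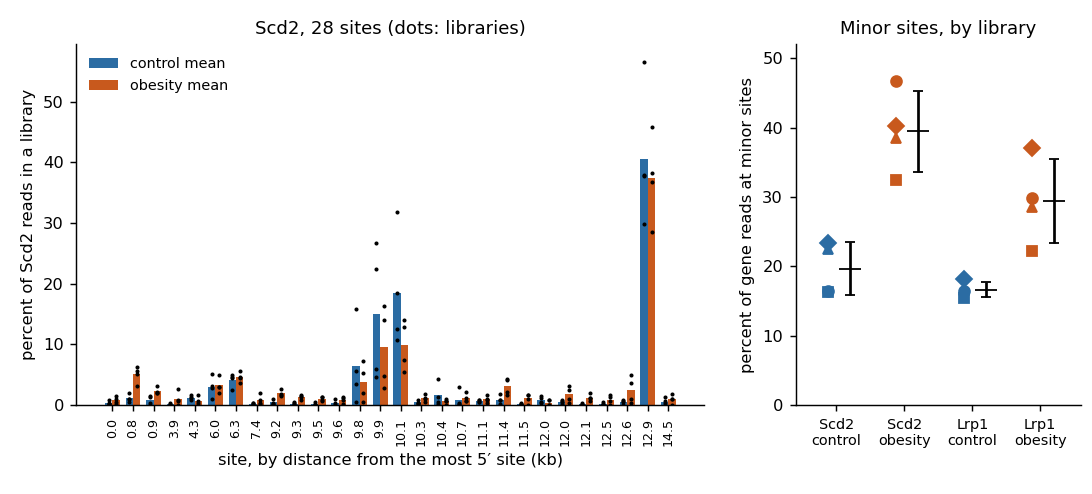
Left, percent of the Scd2 reads of a library at each of 28 sites in order from the most 5′ one (distance in kb), as group means with dots for the libraries. Right, percent of gene reads at minor sites (each under 5%) of Scd2 and Lrp1 in each library, with bars of mean and SD, where no obesity library overlaps the controls.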

How the data were processed

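WTTS-seq was run on 8 hypothalamus libraries, 4 per group, and groups were taken from the sample labels. The authors deposited whole-number read counts for each polyadenylation site, not normalized. The submitters' processing notes name Bowtie2 2.2.3 and Rnor_6.0, and how sites were clustered, filtered and assigned to genes for these libraries is not given in the sources used here, since the paper linked to them describes another exposure. The lowest site total was 30 reads, and 1 row without a site (1710888 reads, the total of control library 1) was left out. Library totals were 1417531 to 1957726 reads.

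Sites of a gene were summed on the strand with most of its reads. Of the lipid genes followed, 8 also had sites on the other strand, and these 15 sites with 2422 reads were left out. Reads left out and kept were 661 and 1028 for Srebf2, 639 and 1125 for Acsl3 and 428 and 723 for Fads2. They were 259 and 805 for Acaca, 205 and 1227 for Fdft1 and 99 and 840 for Elovl5. For Msmo1 they were 89 and 124, and for Fdps 42 and 833. Quasi-likelihood F tests (edgeR 4.0.16 in R 4.3.3, robust fit, TMM scaling) were run on sums and on sites, p-values were adjusted by Benjamini-Hochberg over all 12255 genes or 73922 sites, and site usage was tested with diffSpliceDGE over 7996 genes. The threshold was an adjusted p of 0.1. Fitted SEs are the log2 fold change over the root of F. Alternatives were DESeq2 1.42.0, its size factors, filterByExpr, both strands, left-out libraries and a replicate block. Scripts were tested on simulated data. Reads carry no molecular identifiers, so replicate spread is the only error used. Sites that may come from priming inside A-rich RNA were not told apart. The labels give the libraries as separate rats, and no library was listed again under another label (chi-square per site 2.86 to 9.35 over 28 library pairs).

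Same-numbered libraries deviated together, with correlations of 0.224 to 0.330 over genes against -0.174 to 0.047 for different numbers, and all 4 pairs were over 0.1, so that the numbers count as a pairing, which the labels leave unexplained. Over the 39 genes alone these correlations were 0.270, -0.027, 0.0089 and 0.120 for numbers 1 to 4, so that 2 of the 4 pairs showed none. Reported values come from the fit without the block where no block is named, and a blocked value stands beside some of them only.

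The genes, lists and tests were chosen with earlier results of these data known. Values per library are given for genes with an unadjusted p under 0.05 in either fit and for the most abundant gene of each role. Sites were named at an unadjusted p under 0.01 in either fit with at least 10 normalized reads on average, and other pathway genes at an unadjusted p under 0.01. A further gene that met the last rule is not reported here. Sqle and the minor sites of Scd2 and Lrp1 were chosen after their values were seen. Markers of microglia, endothelium and ependyma were also looked at, with median log2 fold changes of 0.00 over 4, -0.35 over 4 and -0.21 over 2 genes measured.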

Additional observations from a re-analysis of the deposited data

Results flagged for a closer look

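Among 108 checks of 4 libraries of 1 group, 13 had a library that stood apart from the other 3. The limit used is set to flag about 1 in 20 under ideal conditions. The checks include low counts and sums over genes also checked alone, so that rate need not hold and was not tested here. The 13 were spread over 7 of the 8 libraries, with 3 in control library 3 and none in control library 2.

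In control, Insig1 was at 44.1 CPM in library 4 against 31.5 to 33.3 in the others, a gap that lies away from the obesity values. Fdps was at 66.9 CPM in control library 4 against 96.3 to 98.4, and Cyp51 at 12.03 CPM in control library 1 against 24.3 to 25.4. Control library 3 had the high values of Lrp1 (478.7 CPM against 365.0 to 380.8), of Srebf2 (94.3 CPM against 78.3 to 80.6) and of the sum over sterol uptake and efflux (504.7 CPM against 382.2 to 393.8).

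In obesity, Scd2 was at 640.6 CPM in library 2 against 456.8 to 473.8, and Acsl1 at 38.2 CPM in library 2 against 11.3 to 14.1. Acaca was at 111.0 CPM in library 4 against 60.3 to 62.4, and Dbi at 0 CPM in library 4 against 13.0 to 13.5. Abca1 was at 12.8 CPM in library 1 against 4.08 to 4.87, and Scap at 20.5 CPM in library 3 against 38.8 to 41.4. The sum over sterol synthesis enzymes was 546.9 CPM in library 1 against 314.5 to 323.8, and Fdft1, whose strand is uncertain, had 412 reads there.

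A site assigned to Elovl5 lay on the strand opposite to the main one (chr8:85272569-85272570, minus strand) and entered no gene sum. It had 5, 8, 5 and 6 reads in control and 30, 16, 18 and 11 reads in obesity libraries 1 to 4, without overlap, or a mean of 3.76 and 10.8 CPM. The site was picked for that trait. The rule flagged only sites with no overlap and higher values in obesity, so a lower one could not be flagged. The share of all sites without overlap is not given here, so the site has no background to be read against. The log2 fold change of this Elovl5 site was 1.51 (SE 0.59, unadjusted p 0.022, edgeR adjusted p 1.00). Which transcript it belongs to was not settled here.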

How the results depend on the processing

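Over 30 results and 20 alternative settings, 457 of 495 values were counted as unchanged. For a named gene or site this meant the same direction and side of the threshold. For a median or share it meant a move within the spread between libraries, and for a count, 0 again or a change within a fixed ratio. No named gene or site changed sign. The medians of 5 gene groups did, in 2 settings for sensing, 1 for uptake and efflux, 1 for desaturation, 3 for activation and 6 for lipid binding. Insig1 was below an unadjusted p of 0.05 in every gene-level setting. The count of genes at that limit went from 2 to 4 with the replicate block, to 4 (with Elovl5 and Srebf2) with both strands summed and to 1 to 5 with 1 library left out, where control library 2 or 3 ended the Acacb value and without obesity library 2 there were 5, with Elovl5, Fasn and Fdps. The replicate block without both libraries of a number gave 2 to 8 genes at that limit (5.13% to 20.5%), against 6.71% to 15.1% of all genes. It gave 0 to 3 past an adjusted p of 0.1, against 0% to 4.59% of all genes. The 3 were Fdft1, Fdps and Elovl5 without number 2 (edgeR adjusted p 0.026, 0.043 and 0.084), when 562 of all genes passed, and Sc5d, Acot7 and Tecr passed then too (0.028, 0.099 and 0.0082). Sites at an unadjusted p under 0.05 went from 13 to 24 (replicate block), 5 (filterByExpr), 7 to 18 (1 library left out, lowest without obesity library 1) and 14 to 25 (replicate block, a number left out), with 0 to 1 past an adjusted p of 0.1, the Scd2 site at chr1:264069666-264069736 without number 2 (edgeR adjusted p 0.020, log2 fold change -1.45). Site usage gave 1 gene under 0.05 with the replicate block, with filterByExpr and in each blocked fit without a number. For sites and site usage, the shares over everything tested were not computed with filterByExpr or with libraries left out.

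With libraries left out, without the block and then with it, the median log2 fold change ranged from -0.17 to -0.047 and from -0.23 to -0.022 over all 39 genes, from -0.42 to -0.11 and from -0.45 to -0.29 for sterol synthesis enzymes, from -0.40 to -0.047 and from -0.49 to 0.25 for uptake and efflux, from -0.75 to -0.11 and from -0.77 to -0.24 for fatty acid synthesis, from -0.39 to -0.22 and from -0.55 to -0.20 for oxidation, from 0.00 to 0.25 and from -0.02 to 0.26 for sensing, from 0.19 to 0.64 and from 0.16 to 0.61 for elongation, from -0.24 to -0.015 and from -0.26 to 0.064 for desaturation, from -0.38 to 0.12 and from -0.36 to -0.0035 for activation, and from -0.21 to 0.30 and from -0.20 to 0.31 for lipid binding. The shifts past the spread came without control library 3 or obesity library 1, 2 or 4, or without a numbered pair, and their cause was not tested. The difference of the Scd2 minor-site share was 17.4 to 22.2 percentage points with 1 library left out and 17.2 with minor sites set at under 10% of gene reads, and that of Lrp1 was 10.2 to 15.2 and 11.6. These 2 measures, like the Fdft1 setting, were added after the data were seen. Counts under about 50 reads per library limit what could be seen, as for Acacb, the lipid-binding genes and, in every library but control library 4, Insig1.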
